A study of Zea mays with 112 samples.

Results

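At 3514 loci of the maize genome, both groups of basic leucine zipper (BZIP) binding profiles came together. These loci were selected on the peak positions of 13 BZIP lists among the binding site lists of many transcription factors (TFs), 1 list per TF, that ampDAP-seq gave in vitro. Another 99 lists set the borders of the loci and the limit on crowding. In this assay a TF carrying a HaloTag, made in wheat germ extract, is held on beads and mixed with PCR-amplified genomic DNA, and the bound DNA is recovered and sequenced. All lists used leaf DNA of the inbred line B73 at 14 DAG, with no treatment and no mutant. The DNA was extracted, which leaves chromatin behind, and its PCR copies carry no methyl marks. Each TF has 1 list, so a difference between lists has no replicate check, and read depth is unknown. The lists of NRP1 and NACTF2 carry a mark of merging, and what was merged is not stated.

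Summits of all lists that lay within 100 bp of the next one were chained into 3256404 loci. A joint locus had a peak of 5 or more of BZIP8, BZIP22, BZIP23, BZIP43, BZIP78, BZIP114 and BZIP121, here called set 1. It also had a peak of 4 or more of BZIP52, BZIP54, BZIP60, BZIP75, BZIP104 and BZIP111, here called set 2, and fewer than 30 TFs in all. This choice took 0.108% of all loci. The joint loci were 5.56% of the 63157 loci with 5 or more set 1 lists and 11.7% of the 30040 loci with 4 or more set 2 lists. They are set below against 49963 loci of set 1 alone (5 or more of set 1, none of set 2) and 15731 loci of set 2 alone (4 or more of set 2, none of set 1), both with fewer than 30 TFs.

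The basic region of a BZIP protein lies in the major groove of DNA and the leucine zipper holds 2 such proteins together, so a site is read by a pair of monomers. Plant BZIP factors are best known for sites around an ACGT core, among them the G-box, to which G-box binding factors such as GBF1 owe their name. The stretches below are shown because most motifs of each set share a core. They are the longest unambiguous run in the motif that the study's supplementary table gives for each TF, with the AGCTG of set 1 or the ACGT of set 2 in capitals, and the strand is the one of that table.

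BZIP78: AGCTGgc
BZIP23: AGCTGgc
BZIP8: AGCTG
BZIP43: cAGCTG
BZIP114: cAGCTG
BZIP121: gacAGCTGtc
BZIP22: ctggc
BZIP75: tgACGTggca
BZIP54: tgACGTggca
BZIP111: tgccACGTca
BZIP60: tgccACGTca
BZIP104: ccACGTca
BZIP52: ttcgtca

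The AGCTG run was thus in 6 of the 7 set 1 motifs, and the ACGT core in 5 of the 6 set 2 motifs. The runs of BZIP22 and BZIP52 held neither. Which of these letters lie at each joint locus was not analysed here, since no genome of the build of the files was at hand.

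The first question was how many joint loci the positions of the lists gave beyond what lists of these lengths give when moved apart. Moving all 6 set 2 lists together along the chromosomes by 10 to 1000 kb in either direction left 348 to 383 joint loci, with a median of 358 over 10 offsets. The 3514 loci at the deposited positions were 9.18 to 10.1 times these counts. When each of the 13 lists was moved by an offset of its own, 0 loci met the rule. Such a move also takes apart the lists inside each set, so it does not speak to the joining of the 2 sets. The number of joint loci is a description, since the same positions chose the loci, and it carries no test.

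**Figure D1:**
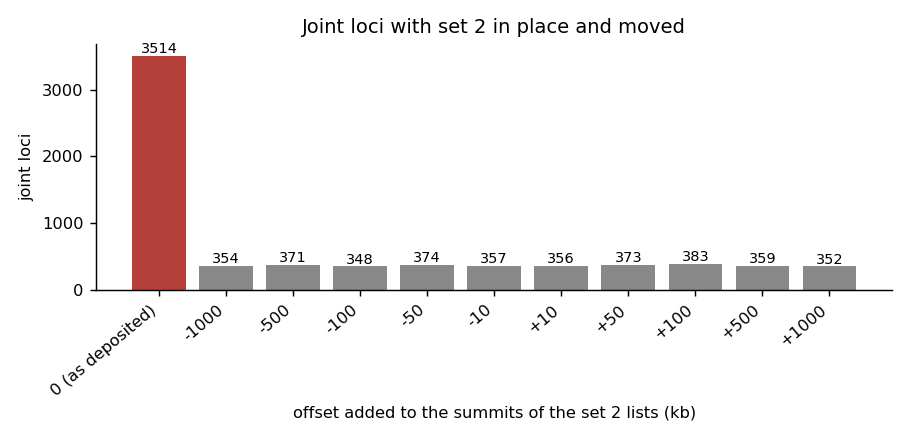
Number of joint loci (vertical axis) with the set 2 lists at their deposited positions (red bar, 3514 loci) and with the set 2 summits moved together by the offset in kb on the horizontal axis (grey bars). The 10 moved counts lie between 348 and 383.

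The count followed the strength of the peaks and the thresholds closely. When only peaks reaching a −log10 q of 10 entered, 68 joint loci were found, and thresholds of 4 and 3 lists gave 12574 and of 6 and 5 lists 991. Just outside the upper limit, 2 loci with 30 TFs and 4 loci with 31 TFs passed both thresholds. Just inside it lay 4 loci with 28 TFs and 6 loci with 29 TFs, and in all 43 loci were left out by the limit. Of the joint loci, 23 held all 13 lists. When 1 list was left out, the thresholds stayed at 5 and 4. A joint locus with exactly 5 set 1 lists then fell out if the list was 1 of them. The same held for 4 set 2 lists, and 846 joint loci had exactly 5 and 4. The counts below thus depend on how many loci lay at a threshold, and do not show that a single list carried the joining. Without BZIP78 1779 loci met the rule, without BZIP43 1784, without BZIP114 1806, without BZIP75 1931, without BZIP121 1947, without BZIP111 1962, without BZIP104 1967 and without BZIP8 2312. Leaving out any of the other 5 lists left 2555 to 3466 loci.

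The lists did not take part evenly. In set 1, BZIP78 had a peak at 99.7% of the joint loci, BZIP43 at 99.5% and BZIP114 at 99.1%. BZIP121 followed with 93.3%, BZIP8 with 84.2% and BZIP23 with 60.5%. BZIP22 stood at 27% of the joint loci, against 88.9% of the loci of set 1 alone. BZIP121 and BZIP23 ran the other way, with 93.3% and 60.5% of the joint loci against 54.3% and 39.1% of the loci of set 1 alone. In set 2, BZIP75 had a peak at 98.3% of the joint loci, BZIP111 at 97.3% and BZIP104 at 97.1%, while BZIP54 had one at 80.2% and BZIP52 at 78.6%. BZIP60 was at 4.67% of the joint loci, against 26.5% of the loci of set 2 alone. These shares were part of the rule and are a description. Thus 4 set 1 lists (BZIP78, BZIP43, BZIP114 and BZIP121) and 3 set 2 lists (BZIP75, BZIP111 and BZIP104) were at over 93% of the joint loci each, and the other lists filled the remaining places that the rule asks for.

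Strength was read as the percentile of the signal column inside each list, where 100 is the strongest peak, because no scaling between lists is stated. The median percentile at joint loci was 89.6 for BZIP114, 89.2 for BZIP78, 84.1 for BZIP121 and 76.3 for BZIP43. It was 82.7 for BZIP75, 79.8 for BZIP104 and 79.1 for BZIP111. BZIP60 had a median of 82 at its 164 joint loci. The other lists had peaks of middling strength, with medians of 46.8 for BZIP8, 47.9 for BZIP23, 48.6 for BZIP52, 50.5 for BZIP22 and 51.1 for BZIP54. For BZIP8 that was below its median of 70.3 at loci of set 1 alone, and for BZIP52 below its 71.8 at loci of set 2 alone. BZIP121 had the opposite order, with 84.1 at joint loci against 58.3 at loci of set 1 alone. At joint loci 89.7% of the BZIP78 peaks reached a −log10 q of 10, against 3.15% of those of BZIP23, 13.5% of those of BZIP54 and 14.5% of those of BZIP52. The small number of loci left at the stricter q went with these weak peaks.

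**Figure D2:**
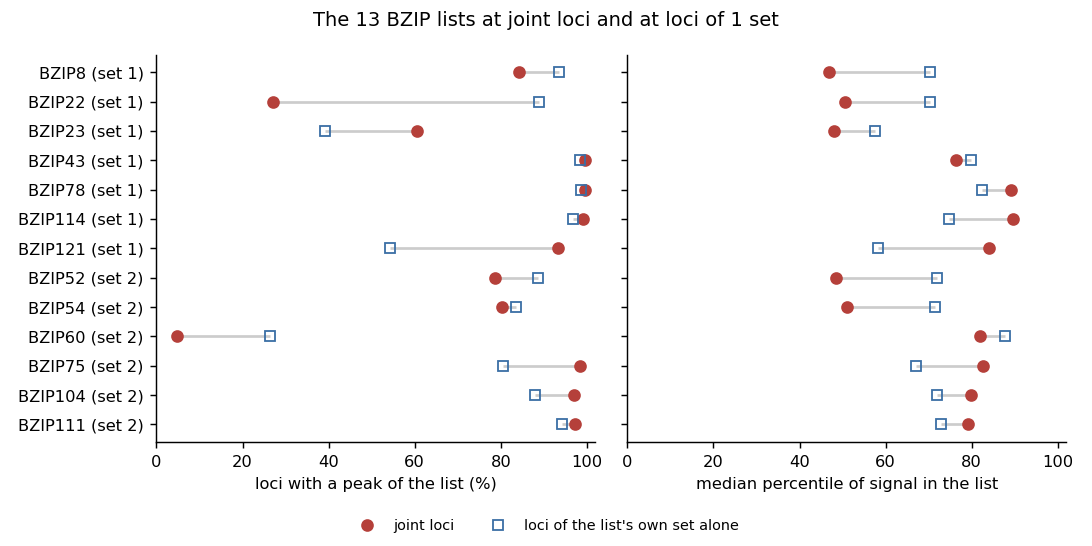
The 13 BZIP lists (rows) at joint loci (red circles) and at loci of the list's own set alone (blue squares). The left panel gives the percent of loci with a peak of the list and the right panel the median percentile of the signal within the list. BZIP22 stands at 27% against 88.9% and BZIP60 at 4.67% against 26.5%, while BZIP121 stands higher at joint loci in both panels.

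The summits of the 2 sets did not coincide. The distance between the median summit of set 1 and that of set 2 had a median of 28.5 bp over the 3514 loci, with quartiles of 26.5 and 40 bp. It fell into a few narrow classes. At 44.5% of the loci it was 25 to under 31 bp, at 18.9% it was 38 to under 43 bp, and at 14.5% it was 4 to under 9 bp. Under 4 bp it was at 26 loci (0.740%). A median summit took all peaks of a set at the locus, and set 2 summits lay on both sides of set 1, as given below. A small distance between medians can thus be a midpoint of summits on both sides, and need not mean summits that close. Of the pairs of lists between the sets, BZIP121 and BZIP75 had the highest share within 5 bp, 5.22%. With set 2 moved by the offsets above, the median distance at the remaining loci was 83 to 100.2 bp. The summits of set 1 kept close together, with a median range of 5 bp between the outermost ones. Those of set 2 were spread over a median of 96 bp.

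Pairs of lists gave the same picture. The 21 pairs inside set 1 had median distances of 1 to 5 bp. Inside set 2 the pair BZIP52 and BZIP54 had a median of 1 bp, and so had BZIP104 and BZIP111. BZIP75 was at a median of 68 bp from BZIP52, 69 bp from BZIP54 and 68 bp from BZIP111, although 25.3% of its pairs with BZIP111 lay within 5 bp. Its median distance to BZIP104 was 45 bp, with 39.3% of the pairs within 5 bp. The 35 pairs between the sets that leave out BZIP60 had medians of 28 to 63 bp. BZIP60, with few loci, had medians of 64.5 to 115.5 bp to the other lists of both sets.

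Single pairs of lists had narrow distances too. BZIP78 (Zm00001d029711) and BZIP75 (Zm00001d012296), the most frequent list of each set, were both present at 3444 joint loci, and the distance between their strongest summits was 38 to 43 bp at 2287 of them (66.4%, Wilson 95% interval 64.8 to 68.0%). Nearly all of these had exactly 39 bp (1120 loci) or exactly 42 bp (1117 loci). A further 298 loci had 80 to 85 bp, and 161 had 2 to 7 bp. With set 2 moved, 1.91 to 5.56% of the remaining joint loci with both lists had a distance of 38 to 43 bp. BZIP75 lay on the left of BZIP78 in the genome at 1154 of the 2287 loci (50.5%). The spacing of 38 to 43 bp was present at 85.7% of the loci with 4 to under 9 bp between the medians of the sets, at 80% of those with 25 to under 31 bp and at 74.5% of those with 38 to under 43 bp. In the other distance classes it was present at 3.11 to 40.7% of the loci. These distances were singled out after their values were seen and carry no test. Wilson intervals here and below cover counting error only.

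**Figure D3:**
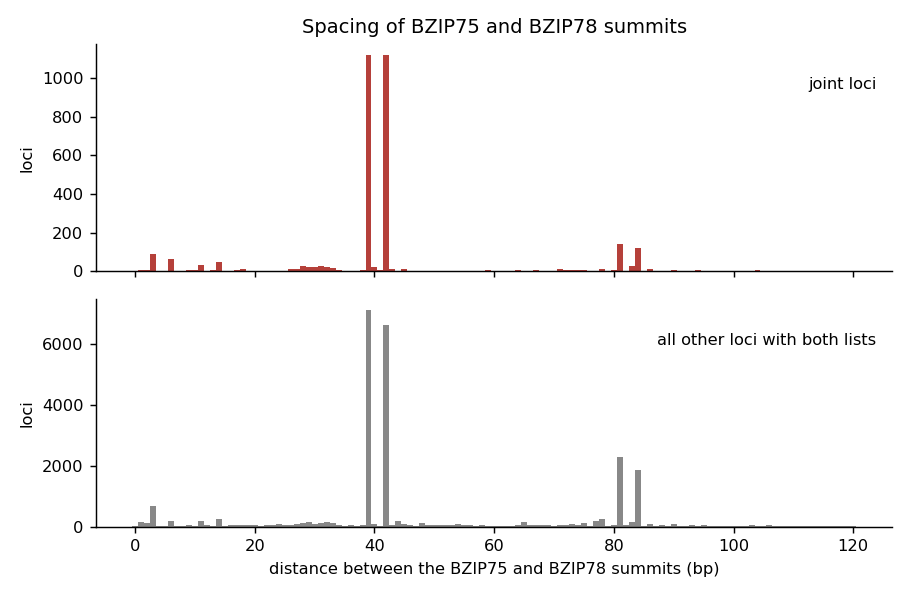
Distance in bp between the strongest summits of BZIP75 and BZIP78 (horizontal axis, up to 120 bp) and the number of loci at each distance (vertical axis), for joint loci (top, red) and for all other loci with both lists (bottom, grey). Both panels peak at 39 and 42 bp, with 1120 and 1117 joint loci, and have smaller peaks near 81 and 84 bp.

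The same spacing was not confined to the joint loci. Outside them, 27092 loci had peaks of BZIP78 and BZIP75, and 13993 (51.7%) had the distance of 38 to 43 bp, among them 7093 with 39 bp and 6621 with 42 bp. Around the thresholds of the rule the share varied little. It was 74.5% at loci with exactly 5 set 1 and 4 set 2 lists, which are joint loci. It was 74.8% at loci with 4 and 4 lists, 68.3% at loci with 5 and 3, and 74.8% at loci with 4 and 3, all of which lie outside the rule. It was lower at either end, with 56.3% at loci with 7 and 5 lists and 36.4% at loci with 1 list of each set. The joint loci with the spacing were thus 2287 of 16280 such loci in the genome.

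To see where the other factors lay, 3245 joint loci with BZIP75 within 100 bp of BZIP78 were turned so that BZIP75 was always on the same side, called the BZIP75 side. The other set 1 lists sat on BZIP78. Between 72.4% (BZIP22) and 89.3% (BZIP121) of their strongest summits lay within 10 bp of it. The set 2 lists divided between both sides. BZIP54 was at 20 to 35 bp on the other side of BZIP78 at 57.6% of its 2581 loci and BZIP52 at 56.5% of its 2506 loci, against 0.736% and 6.86% at 33 to 48 bp on the BZIP75 side. A second position of these lists lay farther out on the other side, at 57 to 72 bp, with 21.3% for BZIP54 and 14.8% for BZIP52. BZIP104 had 41.4% on the other side and 35.4% on the BZIP75 side, and BZIP111 had 48.9% and 21.8%.

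The called positions were sharp to the base. The most frequent offset of BZIP52 was 29 bp (658 loci) followed by 26 bp (618 loci), and that of BZIP54 was 30 bp (598 loci) followed by 27 bp (563 loci). BZIP104 had 28 and 25 bp, and BZIP111 26 and 29 bp. These 4 lists had leading offsets 3 bp apart, as BZIP75 did at 39 and 42 bp. So did BZIP8, BZIP22, BZIP23, BZIP43 and BZIP114, which sat on BZIP78, while BZIP121 had −2 and 2 bp. BZIP114 lay at −3, 0 and 3 bp at 721, 1357 and 693 loci. BZIP43 leaned to the BZIP75 side, with −2 and −5 bp at 1229 and 1160 loci against 2 and 5 bp at 261 and 202. All offsets are counted from the BZIP78 summit, and its part in the steps of 3 bp was not tested. The study's settings of the peak caller include lengths of short sequence words. The part of the caller in these exact positions was not tested. GBF1, a G-box factor outside both sets, lay with BZIP75. Of its 3070 loci in this arrangement, 56.1% had it at 33 to 48 bp on the BZIP75 side and 22.7% at 75 to 90 bp on that side, against 1.60% at 20 to 35 bp on the other side.

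**Figure D4:**
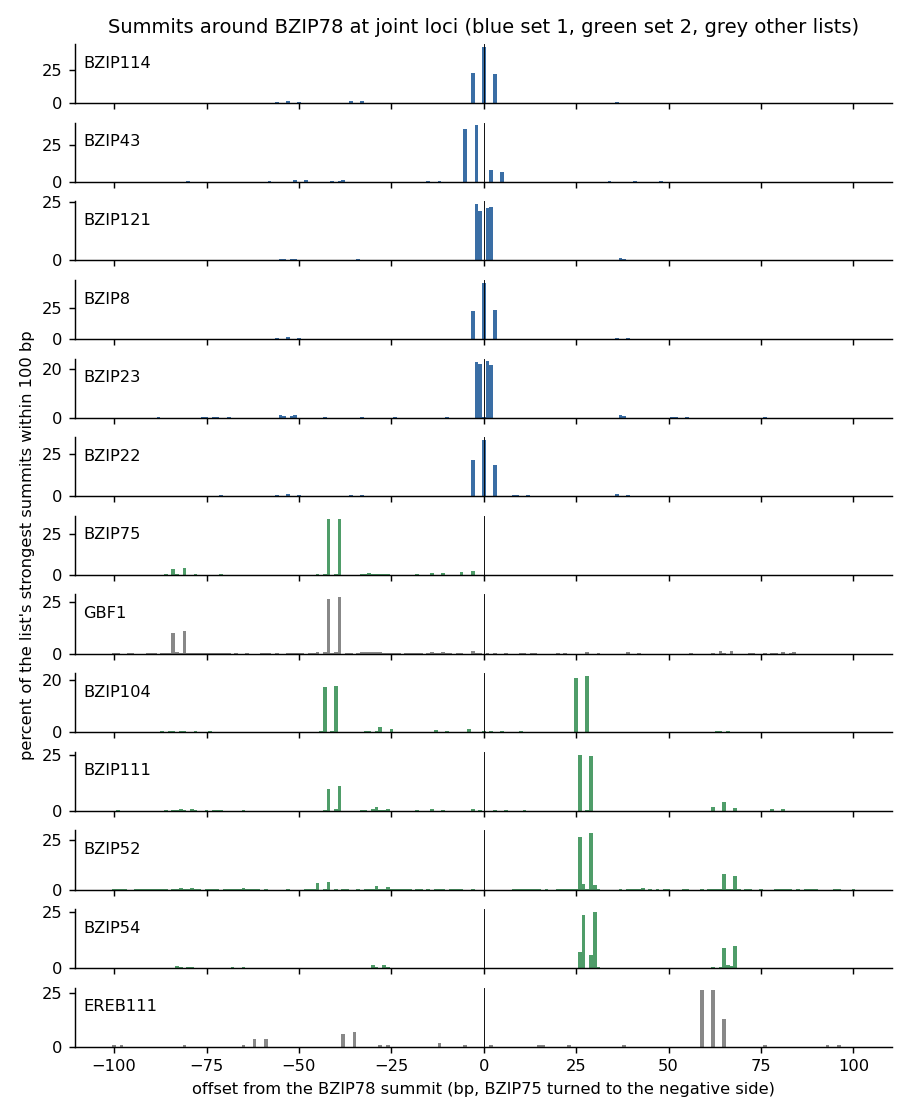
Offset of each list's strongest summit from that of BZIP78 in bp (horizontal axis), with BZIP75 turned to the negative side, at joint loci with BZIP75 within 100 bp of BZIP78. Bars give the percent of the list's summits within 100 bp at each offset for set 1 (blue), set 2 (green) and other lists (grey). Set 1 lists pile up within 5 bp of 0, and BZIP75 and GBF1 at −39 and −42 bp. BZIP52 and BZIP54 pile up at 26 to 30 bp, and BZIP104 and BZIP111 on both sides.

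At the 2287 loci with the spacing, the strongest BZIP111 summit was on the other side at 61.7% and on the BZIP75 side at 23.9%. For BZIP104 these shares were 51.8% and 43.2%. A list could also have a called peak on both sides of 1 locus. BZIP111 had both at 311 of 2266 loci (13.7%) and BZIP104 at 143 of 2267 (6.31%). BZIP75 had both at 2 of 2287 loci, and BZIP52 and BZIP54 at 0 of 1714 and 0 of 1792 loci. A missing second peak does not show a missing second site, because the caller may join close sites into 1 peak. How it treated sites at these distances was not tested.

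Loci with the spacing differed in their make-up from the other joint loci. BZIP60 had a peak at 3 loci with the spacing (0.131%), against 161 loci without it (13.1%). BZIP22 had one at 14.6% with the spacing and 50.2% without it, and BZIP121 at 99.4% with it and 81.8% without it. The lists differed in strength between these loci in both directions. The median percentile was higher with the spacing for 6 lists, BZIP78, BZIP114, BZIP121, BZIP75, BZIP104 and BZIP111. For BZIP114 it was 91.4 with the spacing and 84.7 without it, and for BZIP111 80.9 and 72.8. It was lower with the spacing for the other 7 lists, among them BZIP43 with 75.6 against 78.1, BZIP8 with 41.6 against 59.2 and BZIP54 with 44.5 against 61.8. GBF1 stood at 94.1% of the loci with the spacing and 95.1% of those without it.

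A locus from the middle of the ranking shows the arrangement. Joint loci were ranked by the mean signal percentile over the 13 lists, a missing peak counting as 0, and the median locus was chr8:132281640-132281947 (B73 v4). It held 11 TFs. Around the BZIP78 summit at 132281807, BZIP114 lay at 0 bp, BZIP121, BZIP23 and BZIP8 at −1, −2 and −3 bp, and BZIP43 at 2 bp. BZIP75 and GBF1 shared a summit at 39 bp on one side. On the other side lay BZIP104 at −28 bp, BZIP111 at −29 bp and BZIP54 at −68 bp. Its strongest peaks within their lists were those of BZIP114 (percentile 97.7), BZIP121 (89.3) and GBF1 (86.1), and the weakest was that of BZIP8 (34.5).

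The ranking favours loci with all lists, since a missing peak counts as 0. The 4 highest were chr4:85630757-85631270, chr10:123947450-123948044, chr8:73375717-73376257 and chr3:134314175-134314729. Each held all 13 lists and 18 to 21 TFs, their summits spanned 313 to 394 bp, and none had the spacing. At the locus on chromosome 4, whose mean percentile was 95.1, the BZIP78 summit (percentile 99.7) had BZIP104 at −9 bp and BZIP111, BZIP75 and GBF1 together at 30 bp. MYB73, MYB155 and MYB50 lay 170 to 202 bp away there. The fifth, chr7:164136741-164137059, had the spacing and 13 TFs. Its BZIP121 peak had a signal of 1285 and a −log10 q at the cap of the column, and its BZIP114 peak had a percentile that rounds to 100. BZIP75 and GBF1 lay 39 bp away, on the side opposite to BZIP104 at 28 bp and BZIP111 at 29 bp.

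Among the 23 loci with all 13 lists, the median summits of the sets lay closest at chr2:78885955-78886700, 6.5 bp apart. All peaks of a list entered these medians, and lists such as BZIP78 and BZIP114 had 2 peaks there. The value is thus not a distance between single summits. The locus held 23 TFs, among them 5 NAC factors whose summits lay 32 to 36 bp from BZIP78. There BZIP75, BZIP54, BZIP111 and GBF1 shared a summit at −56 bp. The next closest were the chromosome 8 locus above, at 24 bp, and chr3:22941044-22941457, at 29 bp. None of these had the spacing. Over all joint loci the mean percentile had a median of 52.7, with 10% of loci below 36.2 and 10% above 69.8.

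Whether a list was more frequent or stronger where the other set was also present was tested on loci chosen without that list. For a set 1 list these were loci with 5 or more of the other set 1 lists and 4 or more, or none, of set 2, and for a set 2 list the reverse. Over the 13 lists the share of loci with a peak was 1.26 percentage points higher at joint loci (exact sign-flip permutation test, two-sided, p = 0.858, adjusted p = 1 over 10 tests), with 8 lists higher and 5 lower. The lists themselves moved far in both directions (SD 24 points). BZIP121 was at 87.9% of the joint loci chosen without it, against 47.3% of the loci of set 1 alone. BZIP75 was at 96.9% of the joint loci, against 71.2% of the loci of set 2 alone. BZIP22 was at 21.7% of the joint loci against 80.6%, BZIP60 at 3.35% against 20.2%, and BZIP8 at 76.0% against 88.0%. The intervals of each of these 5 pairs were apart. A peak of the list counted within 100 bp of the locus, and locus width differed between the classes as given below for the full rule. The part of width in these shares was not tested.

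The strength of the held-out lists gave no common direction either. The median percentile was 3.88 points lower at joint loci over the 13 lists (exact sign-flip permutation test, two-sided, p = 0.392, adjusted p = 0.813), with 5 lists higher and 8 lower. BZIP121 had a median percentile of 89.7 at joint loci and 63.2 at loci of set 1 alone, and BZIP114 had 93.8 and 84.4. BZIP75 had 86.3 at joint loci and 77.0 at loci of set 2 alone. BZIP22 had 47.9 at joint loci and 78.8 at loci of set 1 alone, and BZIP52 had 56.5 at joint loci and 77.8 at loci of set 2 alone. Taken by set, no test passed. For the 7 lists of set 1 the differences were −0.462 points of share (exact permutation p = 0.984) and −3.36 of percentile (exact permutation p = 0.719), where the smallest p possible was 0.0156. For the 6 lists of set 2 they were 3.27 (exact permutation p = 0.688) and −4.49 (exact permutation p = 0.406), where it was 0.0313.

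Beyond the BZIP lists, joint loci held few TFs. GBF1 was at 94.5% of the joint loci, against 9.75% of the loci of set 1 alone and 85.2% of the loci of set 2 alone. It was thus frequent at set 2 loci with or without set 1. The rule asks for set 2 lists, so the difference of GBF1 from set 1 alone goes with the rule. At 2917 joint loci (83.0%) no TF other than the 13 BZIP factors and GBF1 had a peak, at 264 there was 1 and at 333 there were 2 or more. Over the other 98 lists the median share was 0.384% at joint loci, 0.910% at loci of set 1 alone and 1.57% at loci of set 2 alone. THX47 and EREB18, with lists of 5387 and 13365 peaks, were at 0 of the 3514 loci.

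After GBF1 the most frequent was EREB111, at 4.61% of the joint loci (Wilson 3.97 to 5.35%), against 1.64% of the loci of set 1 alone and 4.18% of the loci of set 2 alone. Its list is long, with 183731 peaks beside 3256404 loci in all. The order of lists by share was not adjusted for list length, and shares over all loci are not given here. EREB names mark factors of the AP2/ERF type. At the 144 turned loci with its summit, 59.0% of the EREB111 summits lay 57 to 72 bp from BZIP78 on the side away from BZIP75, with 34 loci at 59 bp and 34 at 62 bp. The next 8 were NRP1 (2.79%), MYB73 (2.68%), MYB50 (2.2%), 1d012427 (2.22%), NACTF126 (1.85%), BHLH156 and MYBR81 (1.79% each) and NACTF65 (1.65%). By name stem, the median share at joint loci was 1.54% over 5 MYB lists, 0.655% over 17 EREB lists, 0.512% over 13 NACTF lists, 0.256% over 7 MYBR lists and 0.199% over 20 WRKY lists. All 5 medians but that of MYB were below those at loci of set 1 alone, where MYB lists had 1.30%.

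Of the 99 other lists, 8 (8.08%) had a higher share at joint loci than at loci of set 1 alone, with Wilson intervals apart, and 45 (45.5%) a lower one. Besides GBF1 and EREB111, MYB155 had 1.54% against 0.196%, EREB79 1.20% against 0.260% and BHLH156 1.79% against 0.973%. The lists that were lower by most were 1d012427 with 2.22% against 6.48%, MYB50 with 2.2% against 5.86%, MYBR81 with 1.79% against 4.83%, WRKY48 with 0.199% against 3.0% and WRKY92 with 1.14% against 3.58%. The mean difference was 0.355 percentage points (sign-flip permutation test over 99 lists, two-sided, p = 1, adjusted p = 1), and 20 lists were higher and 79 lower. This mean rested on GBF1. Without it the mean difference was −0.505 points over 98 lists (permutation p = 1e-05, the smallest that 100000 sign flips can give).

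Against loci of set 2 alone, 2 lists (2.02%) were higher at joint loci with intervals apart and 85 (85.9%) lower. The higher ones were GBF1 and 1d012968, which had 0.711% against 0.356%. The lists that were lower by most were NRP1 with 2.79% against 16.3%, OCL5A with 1.42% against 12%, MYB73 with 2.68% against 12.4%, HB91 with 1.14% against 10.5% and NACTF126 with 1.85% against 11.2%. The mean difference was −2.18 points (permutation p = 1e-05, adjusted p = 1e-04), and 95 of 99 lists were lower. The lists include families of related TFs and were all scored at the same loci, so they are not independent units. The p-values of this test and of that against set 1 alone may therefore be too small. The classes also differed in width. The median distance between the outermost summits was 110 bp at joint loci, 63 bp at loci of set 1 alone and 134 bp at loci of set 2 alone. The limit of TFs also left less room for other lists at joint loci, which hold at least 9 BZIP lists. The part of either in these differences was not tested.

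Joint loci lay on all 10 chromosomes, with 1.42 per Mb on chromosome 4 and 1.94 per Mb on chromosome 8 as the extremes, and 36 loci lay elsewhere. In the outer 25% at either end of a chromosome were 55.2% of the joint loci, against 50.6% of the loci of set 1 alone, 49.5% of those of set 2 alone and 49.7% of all loci. The mean difference over chromosomes was 4.24 percentage points from set 1 alone (exact sign-flip permutation test over 10 chromosomes, two-sided, p = 0.0137, adjusted p = 0.0456), higher on 8 of 10. It was 5.66 points from set 2 alone (exact permutation p = 0.00781, adjusted p = 0.0391), higher on 9 of 10. Chromosomes are parts of 1 genome and no repeats of the assay. Along the chromosomes, joint loci were least frequent from 30 to 40% of the span, with 7.36%, and most frequent from 80 to 90%, with 12.6%. With the outer 10% at either end, the difference from set 1 alone was 0.637 points (exact permutation p = 0.387) and that from set 2 alone 2.47 points (exact permutation p = 0.041).

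Finally, some joint loci with the spacing lay at similar short distances from each other and in the same orientation. Gaps were taken between neighbouring loci of this kind on the same chromosome or other sequence of the genome. There were 2261 gaps, with a median of 539.1 kb, and 206 were under 20 kb. Of these, 151 were 9 to 13 kb long. In 147 of the 151 pairs (97.4%, Wilson 93.4 to 99%) BZIP75 lay on the same side of BZIP78 at both loci. Gaps under 9 kb had the same orientation in 62.5% of 24 pairs, gaps of 13 to 19 kb in 52.6% of 19 pairs, gaps of 19 to 20 kb in 91.7% of 12 pairs and gaps of 20 to 100 kb in 62.9% of 237 pairs. Pairs with gaps of 100 to 300 kb had the same orientation in 53.1% (Wilson 47.9 to 58.3%), and pairs with gaps of 1000 kb or more in 48.4% (44.8 to 52.1%). The gap classes were set after the gaps were seen, and no test was made. Repeated sequence at these loci was not analysed here. The methods name no filter on mapping quality, so how reads from near-identical stretches of the genome were placed is not known.

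**Figure D5:**
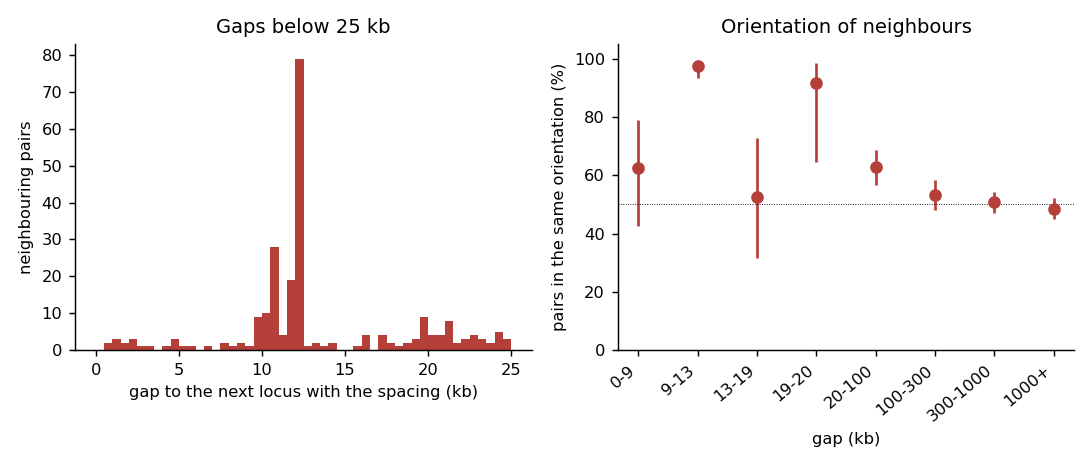
Neighbouring joint loci with the 38 to 43 bp spacing. Left, number of neighbouring pairs by gap in kb, up to 25 kb, with most short gaps between 9 and 13 kb (151 pairs). Right, percent of pairs in the same orientation by gap class in kb, with Wilson 95% intervals and a dotted line where both orientations are equally frequent, 97.4% at 9 to 13 kb and 48.4% at 1000 kb or more.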

How the data were processed

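All lists, 13 of BZIP factors and 99 others, were analysed as deposited, 1 per TF. Per the study's methods, the authors trimmed reads with Trimmomatic (0.39), aligned them to B73 v4 with bowtie2 (2.4.1), removed duplicates with Picard and called peaks with GEM against an empty-vector library, which was not analysed here. Each deposited interval is 201 bp long, and the summit was taken 100 bp from its start. The deposited signal column has no stated scaling between libraries and was used only as percentiles within a list. The authors also deposited −log10 p-values, not used here, and −log10 q-values, capped at a common maximum, with a minimum of 3 to 3.05 per list. The deposited score column was not used. Every column was mapped (0 left unmapped).

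The 13 BZIP lists held 40253 to 285897 peaks. Depth is unknown, and the number of weak peaks in a list carries an unknown effect of depth. The members, the 2 sets and all lists were chosen with earlier results of these data known. Sign-flip permutation tests (exact up to 13 lists or 10 chromosomes, otherwise 100000 draws) were adjusted together over 10 p-values by Benjamini-Hochberg. They treat lists as independent units, although lists of related TFs can share sites. Spacing, orientation and gaps were examined after their values were seen. Loci were named by rank of mean percentile (5 highest and the median) and by the smallest distance between the median summits of the sets among loci with all 13 lists (3 loci). Other TFs were named as the 10 most frequent at joint loci and the 5 largest differences each way from either class. Alternatives changed the chain distance, the q, the thresholds, the limit of TFs, the distance measure and the lists used. Functions were tested on simulated data. The motif search at the loci was not run, because no B73 v4 genome was used here. Analyses used Python 3.11.15, numpy 2.4.6, pandas 2.3.3 and scipy 1.17.1.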

Additional observations from a re-analysis of the deposited data

How the results depend on the processing

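The number of joint loci moved most with the stricter q (68 loci), with thresholds of 4 and 3 lists (12574) and with thresholds of 6 and 5 (991). Chain distances of 50 and 200 bp, no limit of TFs and a limit of 20 TFs gave 2950, 4016, 3557 and 3426. Leaving out 1 list, with the thresholds kept at 5 and 4, gave 1779 to 3466 loci. The median distance of the sets was 25 bp for the closest pair of summits and 39 bp for the strongest peaks, and it stayed between 27.5 and 29 bp under the other alternatives, leaving out 1 list included. The share of loci with the 38 to 43 bp spacing, an analysis added after the data were seen, was 66.4%. It was 76.0% at a chain distance of 50 bp, 60.3% at 200 bp, 47.8% of 67 loci at the stricter q, 68.0% with under 20 TFs, 65.0% with thresholds of 4 and 3 and 62% with 6 and 5.

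Held-out presence ranged from −2.02 to 6.27 points when 1 list was left out of the mean. It turned negative without BZIP121 (−2.02), BZIP75 (−0.782) or BZIP23 (−0.152), and no alternative passed the test. Held-out strength stayed negative (−6.42 to −1.63 when 1 list was left out) and passed the test under none. The mean difference of the other TFs from set 1 alone reversed to −0.505 points without GBF1. The position against set 1 alone did not pass with the outer 10% (0.637 points). Leaving out 1 chromosome gave 3.74 to 4.90 points against set 1 alone and 5.09 to 6.80 against set 2 alone. The causes were not tested. No paired analysis was possible because each list is another TF, and the numbers in the names identify TFs.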
